A study of Mus musculus with 4 samples.

Results

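The genes described here build, cross-link and cut the extracellular matrix of the kidney cortex. They are the 72 of 9900 genes on the array whose platform symbol starts with Col and a digit, with Lama, Lamb or Lamc and a digit, with Mmp and a digit, or with Timp, Adamts, Matn or Lox, or is Fn1, Sparc, Nid1, Fbn1 or Dcn. They were chosen by name, with a rule set when earlier results of these data were known, and each had 1 probe. Fn1 and Col3a1 were not among the platform's symbols, and Fbn1 was named only through its transcript accession, so these 3 genes are not among the 72.

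One-colour CodeLink arrays, 4 in all, were hybridised with renal cortex RNA of male C57BL/6J mice aged 20 weeks, 1 array per group. Nondiabetic wild-type mice (ND-WT) and nondiabetic mice lacking ICAM-1, an adhesion molecule of leukocyte entry (ND-KO), had received citrate buffer at 8 weeks of age. Diabetic wild-type mice (DM-WT) and diabetic knockout mice (DM-KO) had received a single 200 mg/kg intraperitoneal dose of streptozotocin, which destroys pancreatic beta cells, and had blood glucose above 16 mmol/L on day 7. The labels name ICAM-1-/- mice from a supplier on the same background, with no Cre or inducible step, and ICAM-1+/+ mice as controls. They give 5 mice per group but do not say whether the single array carried pooled RNA or 1 mouse. The groups thus had no replicates, and array and group cannot be told apart.

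Collagen IV, laminins and nidogen form the basement membranes on which glomerular and tubular cells sit. Fibrillar collagens are laid down by fibroblasts and pericytes between the tubules, lysyl oxidases cross-link them, and metalloproteinases cut them under the control of tissue inhibitors. Diabetic kidney disease is known for thickened basement membranes and an expanded mesangial matrix. In whole cortex, fewer cells of a type and less RNA per cell cannot be told apart.

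The Col4a1 and Col4a2 promoters are shown because these genes are a textbook pair read in opposite directions from 1 shared promoter, and their spots gave unlike values between genotypes on these arrays. In RefSeq (GRCm38.p6) their starts lie 21 bases apart and windows from 250 bases before to 50 after each start share 78 bases. Capitals mark the SP1 box, GGGCGG on either strand.
Col4a1, chr8:11312777-11313076, minus strand: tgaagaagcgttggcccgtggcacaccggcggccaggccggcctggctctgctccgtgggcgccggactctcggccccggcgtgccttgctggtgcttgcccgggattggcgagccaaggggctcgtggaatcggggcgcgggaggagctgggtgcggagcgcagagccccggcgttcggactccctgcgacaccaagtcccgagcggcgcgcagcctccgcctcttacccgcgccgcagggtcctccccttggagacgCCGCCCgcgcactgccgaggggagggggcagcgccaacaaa
Col4a2, chr8:11312555-11312854, plus strand: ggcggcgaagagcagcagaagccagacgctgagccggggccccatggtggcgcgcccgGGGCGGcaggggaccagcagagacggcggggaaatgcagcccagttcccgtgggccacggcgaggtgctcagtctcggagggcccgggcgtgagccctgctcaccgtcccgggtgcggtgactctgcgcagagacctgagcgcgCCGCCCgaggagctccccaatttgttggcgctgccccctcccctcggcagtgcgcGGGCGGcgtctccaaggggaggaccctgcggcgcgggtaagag
The Col4a1 window held 1 SP1 box and the Col4a2 window 3, and the box at Col4a1 is 1 of the 3. The motif stood in 35.7% of 32851 promoter windows of this length and in 54.5% of the 55 windows of matrix genes, which covered 48 of the 72. A match is a description of letters, not a binding site.

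A spot marked Flag 0 was usable. Of the 72 matrix genes, 24 (33.3%) had Flag 0 on all 4 arrays, 5 on 3 arrays, 4 on 2 arrays, 2 on 1 array and 37 (51.4%) on none. Of all genes, 59.7% were usable on all 4 arrays and 30.3% on none. Flag 0 was given to 30 matrix genes without and 28 with diabetes in wild type, and to 30 and 33 in knockout mice. Of all gene probes, 64.75% and 62.81% were usable in wild type and 65.88% and 66.2% in knockout mice, in the same order. The 37 genes usable on no array had background-subtracted intensities of 1.46 to 17.5, against negative-control medians of 3.36 to 3.95. They have only an upper bound and no comparison can be drawn for them.

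**Figure D1:**
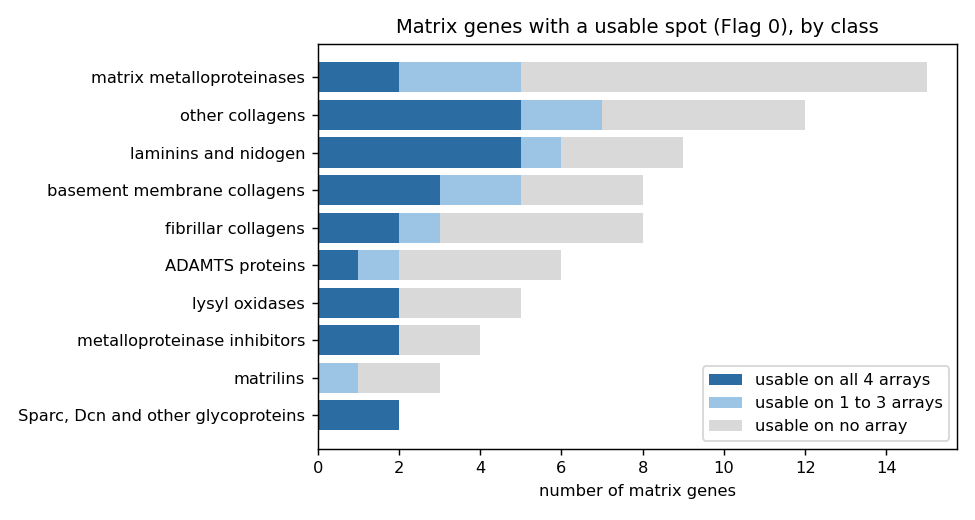
Number of matrix genes (horizontal axis) in each class that had a usable spot on all 4 arrays, on 1 to 3 arrays or on none. Metalloproteinases were the largest class, with 15 genes, and 10 of them were usable on no array.

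Some of the best-known matrix genes were among these 37. Col1a1, the main chain of fibrillar collagen I, had background-subtracted intensities of 8.24 without and 7.77 with diabetes in wild type and of 12.0 and 13.5 in knockout cortex, all marked empty. Timp1, an inhibitor often induced in fibrosis, had 3.57 and 8.79 in wild type and 8.46 and 5.90 in knockout cortex, also empty throughout. Neither probe therefore showed a level above background with or without diabetes. The gelatinase Mmp9, the stromelysin Mmp3, matrilysin Mmp7, the cross-linking enzyme Lox with Loxl2 and Loxl4, the aggrecanases Adamts4 and Adamts5, the basement membrane chains Col4a5, Col4a6, Col15a1, Lama4, Lamb2 and Lamb3, and the fibrillar chains Col2a1, Col5a1, Col11a1 and Col11a2 were not well above background on any array either.

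Array-wide facts bear on every value. Relative to ND-WT, spiked-in bacterial transcripts gave 0.555 of the signal on DM-WT, against 1.27 and 1.22 on the knockout arrays. Between spots of 1 bacterial probe the pooled SD was 0.0989 on the log2 scale, so 95% of differences between a pair of such spots lie within 0.274. This spot noise, taken within arrays before normalization, is the only error that single arrays allow. It leaves out the spread between mice and differences of labelling, hybridisation and normalization between arrays. Of 287 genes in columns 44 to 48 of the upper print block, 16.7% stood at least 1.5-fold below the mean of the other arrays on DM-WT, against 0.359% of 5846 genes elsewhere, and Col18a1 and Mmp10 are printed there. The cell type check found proximal tubule markers usable on all arrays for 7 of 7 on-array genes and skeletal muscle markers for 0 of 3. Of the 3 podocyte markers on the array, Nphs1 and Podxl were on no array above background and Wt1 was on 1.

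In mice with ICAM-1, the question was how the matrix genes stood with and without diabetes. Sparc, a secreted collagen-binding glycoprotein, was the 1 gene of 27 measured on both arrays at least 1.5-fold higher with diabetes, where 1.75% of 6055 genes were, and none was 1.5-fold lower, where 0.875% were. No matrix gene reached 2-fold, where 0.446% of genes were higher and 0.165% lower. Beyond the spot noise, 6 of the 27 (22.2%) were higher, against 7.56% of all genes, and 0 were lower, against 5.78%. They were Sparc, Dcn, Nid1, Loxl1, Col4a2 and Col6a1. The median log2 difference of the 27 was 0.08, beside 0.00 for all genes, and 15 of the 27 were above 0. With 1 array a group these are sizes with no test.

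In the knockout pair no gene of 29 stood 1.5-fold apart in either direction, where 0.536% of 6339 genes were higher and 0.505% lower. None passed the spot noise either, where 3.96% of genes were higher and 3.12% lower. With a background offset of 16, the same line was passed upward by 2 genes (6.90%), against 6.75% of all genes, and downward by 1. In the authors' series table it was passed upward by 5 (17.2%), against 8.64% of all genes, and downward by 4. Shares of all genes lower under these settings are not given. The line was not set anew for them, so it does not give their spot noise. The median log2 difference of the 29 was 0.02, beside -0.01 for all genes. The 6 genes named above had differences of 0.01 to 0.22 in this pair, each above 0. However, Col6a1 stood at -0.013 with median scaling, -0.0017 with no background correction and -0.010 in the series table.

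**Figure D2:**
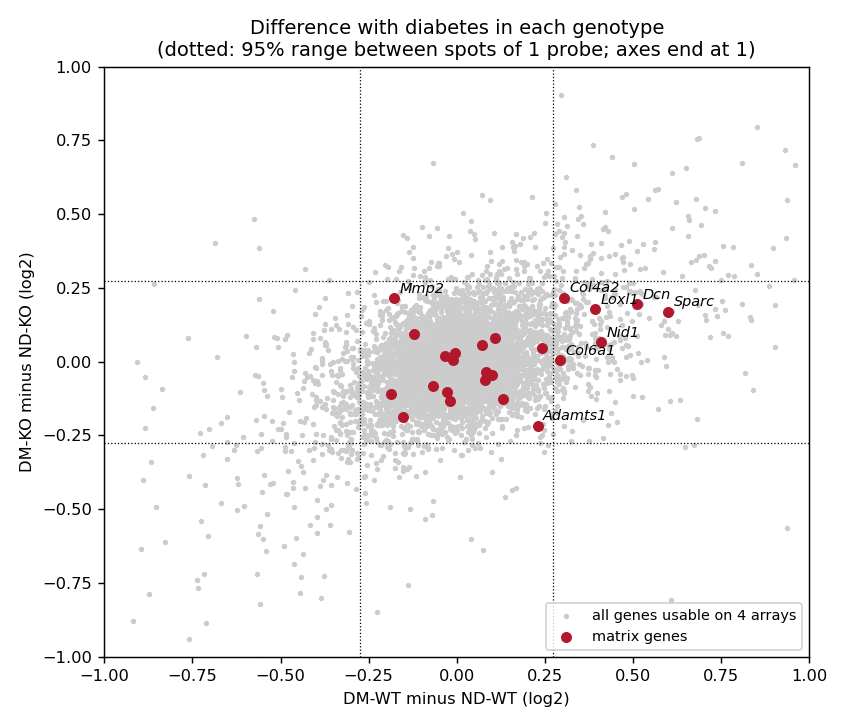
Log2 difference with diabetes in wild-type mice (horizontal axis) and in knockout mice (vertical axis), 1 point per gene usable on all 4 arrays. Of 5914 genes, 42 lie outside the axes. The 24 matrix genes are in red, and dotted lines mark the spot noise of 0.274. The 6 named points on the right lie to the right of the line and none lies above the horizontal one.

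Sparc stood at a log2 intensity of 8.70 without and 9.30 with diabetes in wild type, and at 8.74 and 8.91 in knockout cortex. The DM-WT array was the highest, and both diabetic arrays lay above both nondiabetic ones. The difference was 0.60 in wild type, a 1.52-fold higher value, and 0.17 in knockout mice. In the limma fit of diabetes and genotype over the 4 arrays, the diabetes coefficient was 0.38 with SE 0.12 and a Benjamini-Hochberg adjusted p of 0.34. With the arrays scaled to equal medians instead of quantiles, the wild-type difference was 0.42, below the 1.5-fold line of 0.585.

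Dcn encodes decorin, a small proteoglycan of collagen fibrils that binds TGF-beta. Without and with diabetes, its log2 intensities were 8.13 and 8.64 in wild type and 8.31 and 8.50 in knockout mice. Both diabetic arrays were again above both nondiabetic ones, by 0.51 in wild type and 0.19 in knockout mice. The limma coefficient for diabetes was 0.35 with SE 0.10, and the Benjamini-Hochberg adjusted p was 0.305.

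Loxl1, a cross-linking oxidase that acts on elastin, went from a log2 intensity of 6.55 without to 6.94 with diabetes in wild type, and from 6.75 to 6.93 in knockout mice. Its diabetic arrays were level with each other, and the difference with diabetes was 0.39 in wild type and 0.18 in knockout mice, with a limma Benjamini-Hochberg adjusted p of 0.31. Loxl3, a related oxidase, differed by 0.07 and 0.06. These were the lysyl oxidases measured, 2 of 5.

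Markers of other cells also differed with diabetes. All 4 measured macrophage markers (C1qa, C1qb, C1qc and Lyz2, of 5 on the array) were higher with diabetes in both genotypes, with a median difference of 0.84 in wild type and 0.36 in knockout mice. Their list's summed background-subtracted intensity was 488 without and 830 with diabetes in wild type, and 524 and 739 in knockout mice. Such sums were not normalized between arrays. The DM-WT array was dimmer than ND-WT, with a median background-subtracted intensity of 37.7 against 43.5 over gene probes. The 6 fibroblast, pericyte and smooth muscle markers measured in wild type had a median of 0.17, and 7 in the knockout pair had -0.00. The sums of that list, also not normalized, were 811 without and 782 with diabetes in wild type and 826 and 928 in knockout mice. They ran opposite to the medians of normalized values, so no change in cell content is read from the sums. Proximal tubule markers (7 measured) had medians of -0.34 and -0.13 in wild type and knockout mice, thick limb and distal tubule markers (4) of 0.61 and 0.34, collecting duct markers (3) of 0.30 and 0.15, endothelial markers (5) of 0.07 and 0.07, and adipocyte markers (2) of 0.08 and -0.56. The 2 adipocyte genes went opposite ways, Lpl at -0.46 and -1.22 and Fabp4 at 0.62 and 0.09, while Adipoq and Cfd were usable on ND-KO alone, at log2 intensities of 6.58 and 6.99. The defining macrophage marker Adgre1 was above background on no array. The part of these cell types in the matrix values was not tested.

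**Figure D3:**
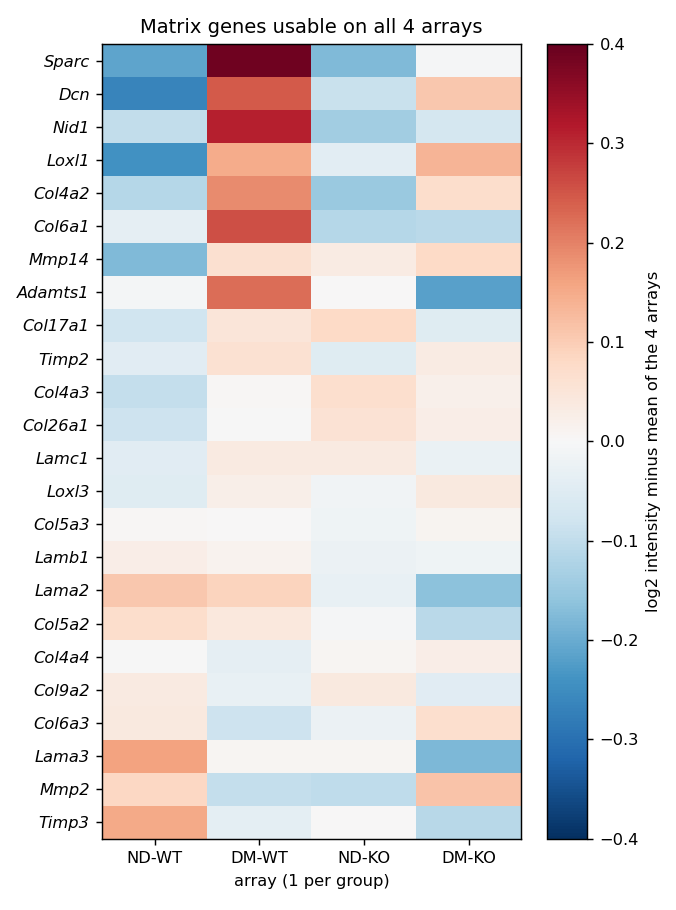
Log2 intensity of each of the 24 matrix genes usable on all 4 arrays, minus its mean over those arrays, by array (columns) and ordered from the highest to the lowest wild-type difference. The upper 6 rows are red on DM-WT. Dcn, Loxl1 and Col4a2 are also red on DM-KO.

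Among the basement membrane genes, Nid1, which links laminin to collagen IV, had log2 intensities of 6.96 without and 7.37 with diabetes in wild type, against 6.92 and 6.99 in knockout mice. DM-WT stood apart from the other arrays. The difference with diabetes was 0.41 in wild type and 0.07 in knockout mice, with a limma Benjamini-Hochberg adjusted p of 0.451 for diabetes.

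Col4a2, the second chain of the ubiquitous collagen IV trimer, had log2 intensities of 6.59 and 6.89 in wild type, without and with diabetes, and of 6.55 and 6.77 in knockout mice. It was higher with diabetes by 0.30 in wild type and 0.22 in knockout mice, and no diabetic array overlapped a nondiabetic one. Its limma coefficient of 0.26 with SE 0.06 gave a Benjamini-Hochberg adjusted p of 0.271, the lowest of the 32 matrix genes fitted. Col4a3 and Col4a4, chains of the specialised glomerular membrane, differed by 0.10 and -0.03 in wild type and by -0.05 and 0.02 in knockout mice, within the spot noise.

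The laminin chains differed little with diabetes. Lama3, an epithelial alpha chain, had log2 intensities of 7.74 and 7.59 in wild type and of 7.58 and 7.40 in knockout mice, lower with diabetes by 0.15 and 0.19. Its limma diabetes coefficient was -0.17, with a Benjamini-Hochberg adjusted p of 0.389. Lamb1 and Lamc1, shared by most laminins, differed by -0.01 and 0.08 in wild type and by 0.00 and -0.06 in knockout mice. Lama2, the alpha chain of laminin in muscle and mesangium, was at 6.49 and 6.47 in wild type and 6.35 and 6.22 in knockout mice. Lama1 was above background on 3 arrays and not on DM-WT.

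Of the other collagens, Col6a1, a chain of the beaded microfilament collagen VI, stood at 6.23 without and 6.53 with diabetes in wild type and at 6.15 and 6.16 in knockout mice on the log2 scale. DM-WT was the highest array, and the difference with diabetes was 0.29 in wild type and 0.01 in knockout mice. Col6a3, another chain of the same collagen, differed by -0.12 and 0.09. Col17a1, a transmembrane collagen of hemidesmosomes, stood between 7.80 and 7.96 on the 4 arrays, and Col26a1 between 6.79 and 6.93. Col9a2 differed by -0.07 and -0.08, while the Col9a1 spot was of poor quality on ND-KO and Col9a1 was left out of the fit.

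Of the 8 fibrillar collagens, 2 were usable on all 4 arrays. Col5a2, a chain that limits fibril width, had log2 intensities of 6.31 and 6.29 in wild type, without and with diabetes, and of 6.24 and 6.13 in knockout mice. Col5a3 stood between 6.11 and 6.14 on all 4. Col1a2, the partner chain of Col1a1, was usable on ND-KO (6.15) and DM-KO (6.10) and marked empty on both wild-type arrays. Its bounds between genotypes were 0.12 without and 0.05 with diabetes, inside the spot noise.

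Metalloproteinases and their inhibitors differed in no common direction. Mmp2, a gelatinase, had log2 intensities of 6.44 without and 6.26 with diabetes in wild type and of 6.25 and 6.47 in knockout mice, so the difference with diabetes was -0.18 in wild type and 0.21 in knockout mice. Mmp14, the membrane-bound activator of Mmp2, was at 6.16 and 6.40 in wild type and 6.37 and 6.41 in knockout mice, and ND-WT was the low array. Both genes stayed within the spot noise in each diabetic comparison.

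Timp3, the matrix-bound inhibitor, had log2 intensities of 11.33 and 11.14 in wild type and of 11.18 and 11.07 in knockout mice, with differences of -0.19 and -0.11 with diabetes. With median scaling its wild-type difference was -0.36, beyond the spot noise. Timp2, which inhibits and also helps activate Mmp2, was at 6.46 and 6.57 in wild type and 6.46 and 6.54 in knockout mice. Timp1 and Timp4 were not above background. Adamts1, a secreted protease of proteoglycans, was at 6.43 and 6.66 in wild type and 6.43 and 6.22 in knockout mice, higher by 0.23 in diabetic wild-type mice and lower by 0.22 in diabetic knockout mice. The Adamtsl2 spot was of poor quality on DM-WT.

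The next comparisons asked what the absence of ICAM-1 changed. Among 27 genes measured on both nondiabetic arrays, 0 stood 1.5-fold apart, where 0.176% of 6258 genes were higher on ND-KO and 0.447% lower. Among 26 measured on both diabetic arrays, 0 stood 1.5-fold apart, where 0.769% of 6111 genes were higher on DM-KO and 1.06% lower. Beyond the spot noise, 4 of the 26 were lower on DM-KO (background 5.38%) and 0 were higher (background 4.48%). The 4 were Adamts1 (-0.44), Sparc (-0.39), Nid1 (-0.38) and Col6a1 (-0.37). These values use the same DM-WT array as the wild-type comparison. With median scaling Sparc stood at -0.26, inside the spot noise, and 3 of the 26 were lower beyond it. On the nondiabetic arrays 1 gene, Matn2 (-0.50), was lower beyond the noise (background 2.89%) and 0 were higher (background 2.88%).

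The widest gaps between genotypes involved spots that were marked empty on some arrays, so only bounds hold. At a bound of at least 1.5-fold, 1 of 5 genes usable on a single nondiabetic array was lower on ND-KO (background 0.966%) and 0 were higher (background 1.69%). On the diabetic arrays 2 of 8 were lower on DM-KO (background 1.87%) and 1 was higher (background 7.85%). For diabetes, 1 of 4 was lower in wild type (background 7.23%), 1 of 4 was lower in knockout mice (background 1.52%), and 0 were higher in either (backgrounds 1.95% and 1.01%). The genes behind these counts were Col4a1, Matn2 and Col18a1.

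Col4a1, the first chain of the ubiquitous collagen IV trimer, had background-subtracted intensities of 62.4 and 59.0 on the wild-type arrays, without and with diabetes, and of 18.8 and 19.4 on the knockout arrays. Both wild-type spots were usable and both knockout spots were marked empty. It was at least 1.64-fold lower in knockout than in wild-type cortex without diabetes and at least 1.74-fold lower with it. Col4a1 entered the limma fit only through its wild-type spots, so its genotype difference was fixed by that filter and no genotype p is given for it. Col4a2, the partner from the shared promoter printed above, differed by -0.03 and -0.12 in the same pairs of arrays.

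Matn2, an adaptor protein of filamentous matrix, had background-subtracted intensities of 95.1 and 72.3 on the wild-type arrays and of 52.3 and 5.40 on the knockout arrays, and was marked empty on DM-KO alone. It was at least 2.22-fold lower on DM-KO than on DM-WT and at least 1.67-fold lower than on ND-KO. The limma genotype coefficient was -0.89 with SE 0.20 and a Benjamini-Hochberg adjusted p of 0.408.

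The authors' series table treats the same spots apart. It holds no value for Col4a1 or Matn2 on either knockout array and holds both on the wild-type arrays. Over 8917 probes matched to that table, such a gap on both knockout arrays alone occurred for 15 genes (0.168%), and 2 of them were these matrix genes. Of the 15, 8 were usable on both wild-type arrays, and of these 3 were at least 1.5-fold lower on DM-KO than on DM-WT: Col4a1, Matn2 and Hspe1. Cd74 and Tpmt, also of these 8, had DM-KO spots of poor quality and so no such difference. Hspe1, a mitochondrial chaperone printed next to Matn2, had background-subtracted intensities of 158 and 139 on the wild-type arrays and 174 and 2.90 on the knockout arrays, without and with diabetes. The 6 usable spots around Col4a1 differed by -0.13 to 0.11 between the nondiabetic genotypes and by -0.40 to 0.14 between the diabetic ones. Arid3a, 1 of these 6, was itself among the 15. The 5 spots around Matn2 differed by -0.04 to 0.14 and by -2.01 to 0.31, with Hspe1 the lowest on the diabetic arrays. Other genes of the 15 also lay on touching spots: Mmel1 with Tpmt, Sez6l with Shtn1, Gpatch4 with Tsc22d4, and Api5 with Mrps5. The reason for the gaps is not given in the sources used here, and their part in the Col4a1 and Matn2 values was not tested. With those spots left out neither gene has a genotype value.

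Col18a1, whose collagen XVIII yields endostatin, had background-subtracted intensities of 47.0 and 6.17 on the wild-type arrays, without and with diabetes, and of 39.9 and 53.0 on the knockout arrays. It was at least 1.53-fold lower with diabetes in wild type and at least 1.58-fold higher on DM-KO than on DM-WT. Both values rest on the DM-WT spot, which lies in these edge columns, and the part of that position was not tested.

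**Figure D4:**
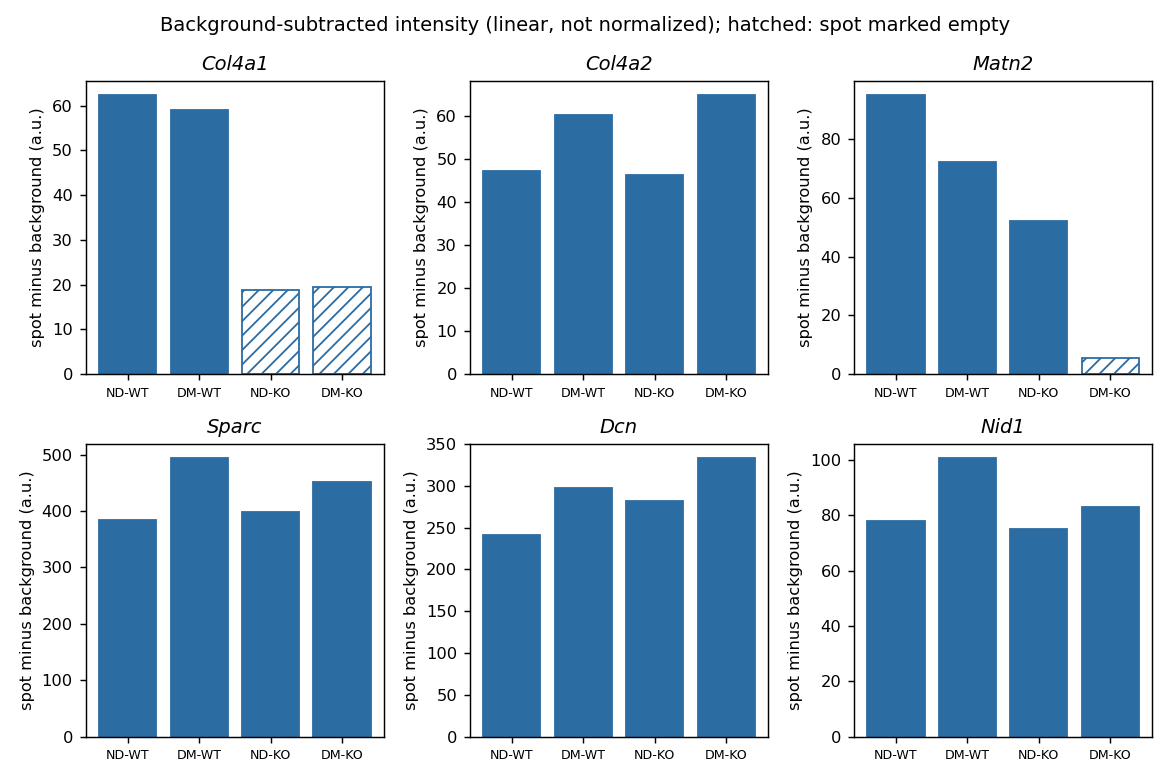
Background-subtracted spot intensity (vertical axes, linear arbitrary units, not normalized between arrays) of 6 matrix genes on the 4 arrays, with spots marked empty hatched. Col4a1 is at 18.8 and 19.4 on the knockout arrays while Col4a2 stays between 46.3 and 64.9.

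The limma fit called none of the 32 matrix genes for diabetes after Benjamini-Hochberg adjustment, where 0.0154% of 6512 genes rose and 0.0% fell, and none for genotype, where 0.0307% rose and 0.0154% fell. At an unadjusted p under 0.05, 4 of 32 had a positive diabetes coefficient (Col4a2, Dcn, Loxl1 and Sparc, background 6.83%) and 1 a negative one (Lama3, background 5.94%). For genotype 0 had a positive coefficient at that level (background 4.41%) and 4 a negative one (Col4a1, Matn2, Lama2 and Lama3, background 4.68%). Col4a1, Col1a2 and Mmp12 were usable on the arrays of 1 genotype alone, and without these 3 genes the negative count was 3 of 29. Among those, Matn2 has no genotype value once the spots that the series table lacks are left out. The unadjusted limma genotype p was 0.047 for Lama3 and 0.041 for Lama2, and 0.124 and 0.055 with median scaling. The median diabetes coefficient of the 32 was 0.01, beside -0.00 over all genes, and the median genotype coefficient was 0.00 in both. Data were simulated with the residual spread of the fit, shuffled between genes. There the diabetes test recovered 42% of genes changed by 1 on the log2 scale and 73% of those changed by 2. Of the unchanged genes, 3 were called after adjustment and 6.89% had an unadjusted limma p under 0.05. These are rates for the simulated data, and smaller changes were not simulated.

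Whether diabetes acted differently without ICAM-1 was given by the interaction, the difference with diabetes in knockout mice minus that in wild type, which cannot be tested with 4 arrays. Of the 24 matrix genes measured on all arrays, 0 reached 1.5-fold, where 0.575% of 5914 genes were higher and 1.01% lower. Their median was -0.10 on the log2 scale, beside -0.01 over all genes, and 18 of the 24 (75.0%) were below 0, beside 51.5% of all genes. Values ran from -0.45 for Adamts1 to 0.39 for Mmp2, with Sparc at -0.43, Nid1 at -0.34, Dcn at -0.32 and Col6a1 at -0.29. The DM-WT array enters each of these values. They also depend on the scaling. With median scaling the wild-type and knockout differences with diabetes were 0.42 and 0.13 for Sparc, 0.35 and 0.18 for Dcn, and 0.33 and 0.06 for Nid1. These pairs lay closer together than with quantile normalization, while Col6a1, at 0.29 and -0.01, did not.

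The genes whose 4 centred log2 values lay nearest to those of Sparc, among 5442 genes, were Ctsd, Lgals9, Fabp4, Ms4a6c and 1700016C15Rik. Their wild-type differences with diabetes were 0.58, 0.56, 0.62, 0.54 and 0.52, and their knockout differences 0.12, 0.22, 0.09, 0.15 and 0.19. Ctsd is a lysosomal protease and Fabp4 a fatty acid carrier of fat cells and macrophages. The nearest matrix genes were Nid1, at rank 37, and Dcn, at rank 78.

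A further list of 108 matrix genes outside the naming rule held proteoglycans and glycoproteins, collagen-processing enzymes, other proteases with their inhibitors, and matrix receptors. Of these 98 were on the array and 62 in the limma fit, and none was called for diabetes or genotype after Benjamini-Hochberg adjustment. At an unadjusted p under 0.05, 14 of 62 had a positive diabetes coefficient (background 6.83%) and 5 a negative one (background 5.94%), with a median of 0.08. For genotype the counts were 5 (background 4.41%) and 6 (background 4.68%), with a median of -0.02. The proteoglycans and glycoproteins gave 7 of the 14 and the proteases and inhibitors 5.

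Bgn, which encodes biglycan, the close relative of decorin, had log2 intensities of 7.97 and 8.49 in wild type and of 8.25 and 8.48 in knockout mice, differing with diabetes by 0.53 and 0.23 (limma Benjamini-Hochberg adjusted p = 0.271). Ccn2, the connective tissue growth factor gene and a TGF-beta target, was at 9.09 and 9.58 in wild type and 8.65 and 8.89 in knockout mice, higher with diabetes by 0.49 and 0.24 and lower in knockout mice by 0.44 and 0.69. Serpine2, an inhibitor of plasminogen activators and thrombin, was at 7.91 and 8.47 in wild type and 7.81 and 8.40 in knockout mice. Its differences with diabetes, 0.56 and 0.58, were alike in both genotypes, and its limma Benjamini-Hochberg adjusted p was 0.131.

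Ctss, a lysosomal elastase of macrophages, was at 7.63 and 8.57 in wild type and 7.69 and 8.11 in knockout mice, higher with diabetes by 0.93 and 0.42. Pcolce, an enhancer of procollagen processing, was higher by 0.31 and 0.15, and Serpinh1, the collagen chaperone, by 0.17 and 0.16. Crtap, of the same list of collagen-processing enzymes, went the other way, at -0.26 and -0.39. Of 12 genes of that list in the limma fit, 2 had a positive diabetes coefficient at an unadjusted p under 0.05 (background 6.83%). As many, 2, had a negative one (background 5.94%). Tgm1, a cross-linking transglutaminase, was lower by 0.56 in knockout mice and by at least 0.60 in wild type, where its DM-WT spot was not well above background. These genes were chosen for the text after their values were seen.

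Fbn1, the microfibril gene named by accession only, was marked empty on ND-WT (6.06) and usable at 6.39 on DM-WT and at 6.38 and 6.61 on the knockout arrays. Its limma diabetes coefficient was 0.28 with a Benjamini-Hochberg adjusted p of 0.255. Mmp15, also named by accession, was not above background on any array.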

How the data were processed

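The deposited scanner tables of the authors hold spot mean intensity and local background intensity on a linear scale, per the file headers, read with CodeLink software from a GenePix scanner, per the labels. The deposited series table of the authors holds intensity too, equal to spot minus background divided by 1 constant per array, within 0.1% for 100% of compared probes. Its column medians were 0.926 to 0.930, its genes were not centred, and how the constant was set is not given in the sources used here.

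Intensities were corrected with normexp (offset 50) in limma 3.58.1 under R 4.3.3 over all spots, put on the log2 scale and quantile-normalized over 10032 gene probes, with poor spots missing. The log2 values are computed from the deposited intensities. The log2 pseudo-level from the offset shrinks differences of dim genes. Probes of a gene were averaged, and the number of arrays limits the precision. Genes with Flag 0 on at least 2 of 4 arrays entered 1 additive limma fit (diabetes and genotype, 1 residual degree of freedom), with empty spots at their value. A bound set the usable value against the higher of the empty spot's value and the lowest usable value of its array. Pairs of arrays were compared by size (1.5-fold) and by spot noise from bacterial controls. P-values rest on the departure of these 4 arrays from additive effects, pooled in part over all genes, and not on repeat arrays or mice. That departure may be technical. A gene whose difference with diabetes is unlike in the 2 genotypes thus has a larger SE.

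Members were found by symbol. They and all lists, including that of 108 other matrix genes, were chosen with earlier results of these data known. Matrix genes were named when among the highest or lowest differences, interactions or p-values, past a bound, poor or at the edge, or from fixed families. The fit was checked on simulated data. Alternatives changed offset, correction, scaling, filter, threshold, edge spots, probe rule and model, and used the series table. Leaving out spots that this table lacks, and leaving out a diabetic array, were added after seeing the data. The marker lists were proximal tubule, thick limb and distal tubule, collecting duct, podocyte, endothelium, fibroblast with pericyte and smooth muscle, macrophage, adipocyte and skeletal muscle.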

Additional observations from a re-analysis of the deposited data

Results flagged for a closer look

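Diabetic and nondiabetic arrays differed in opposite directions in the 2 genotypes for 8 matrix genes, each with 1 array a group, so these differences were not tested. None of the 8 passed the spot noise of 0.274 in both genotypes. Given as the knockout difference minus the wild-type one on the log2 scale, the values were -0.45 for Adamts1 (0.23 in wild type and -0.22 in knockout mice), 0.39 for Mmp2 (-0.18 and 0.21), -0.26 for Col17a1 (0.13 and -0.13) and 0.22 for Col6a3 (-0.12 and 0.09). The others were -0.15 for Col4a3, -0.14 for Lamc1, -0.12 for Col26a1 and 0.053 for Col4a4. With the arrays scaled to equal medians the wild-type differences of Col17a1 (-0.01), Col4a3 (-0.03) and Col4a4 (0.01) turned sign, so these 3 genes no longer differed in direction.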

How the results depend on the processing

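No paired analysis was possible because each group has 1 array. Sparc, the 1 gene at least 1.5-fold apart between DM-WT and ND-WT, gave a count of 0 at 2-fold and 0 with median scaling, and the count was 2 with no filter on dim spots. In the series table it was 3, with Sparc at 0.57 under the line and Col6a1 (0.73), Loxl1 (0.71) and Mmp14 (0.65) past it. Between DM-KO and ND-KO the count of 0 became 1 in the series table and 1 without the filter. Between DM-KO and DM-WT it became 2 with an offset of 16, 3 in the series table and 3 without the filter. Between ND-KO and ND-WT it became 1, 1 and 1 under these 3 settings, and for the interaction 2, 3 and 2. Shares of all genes past 1.5-fold with the offset of 16, the series table or no filter are not given. These counts are therefore not a result about the matrix genes. For diabetes 5 matrix genes and for genotype 4 had an unadjusted p under 0.05, against 0 and 0 after limma's Benjamini-Hochberg adjustment. For genotype the adjusted count was 1 (Col4a1) with median scaling and 1 (Col4a1) with edge spots left out, which supports nothing because Col4a1 entered the fit only through its wild-type spots. The median diabetes coefficient of 0.01 ranged from 0.01 without DM-WT to 0.05 without DM-KO. Among single genes, 72 values moved by more than 0.14, the SD of a difference between 2 spots, 49 of them in the series table, 19 with the offset of 16 and 4 with median scaling, and no value past the 1.5-fold line reversed. The cause was not tested. Median scaling moved the median of all genes by -0.08 between DM-WT and ND-WT, and 5 of 27 matrix genes (18.5%) were then higher beyond the spot noise, Col4a2 (0.27) no longer among them, beside 4.56% of all genes. In the same setting 1 matrix gene, Timp3 (-0.36), was lower beyond the spot noise, and the share of all genes lower is not given. Between DM-KO and DM-WT, Dcn differed by 0.01 with median scaling, beside -0.14, and Sparc by -0.26, inside the spot noise, beside -0.39. There 3 of 26 matrix genes were lower beyond the spot noise, and the share of all genes lower is not given. Dimness limits these data: the 24 genes usable on all arrays had a median background-subtracted intensity of 46.2.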
